A study of Mus musculus with 18 samples.

Results

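Wnt proteins are secreted signals that bind Frizzled receptors and their co-receptors Lrp5 and Lrp6. In the canonical branch this stabilises beta-catenin, which enters the nucleus and acts with the DNA-binding proteins of the TCF/LEF family. Several genes switched on in this way encode brakes on the pathway, so their transcript levels are widely read as a gauge of signalling. In the lung, Wnt signalling is known for its part in airway and alveolar development and in the upkeep of alveolar type 2 cells.

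The genes described here are 9 Wnt ligands and target genes, chosen by name with earlier results of these data known. They are the ligands Wnt7b, Wnt4 and Wnt9a, the secreted Wnt-binding inhibitor Wif1, and the cytoplasmic brakes Axin2 and Nkd2. The rest are the nuclear factors Tcf7 and Lef1 and the receptor gene Tnfrsf19. All 9 are among the 15544 genes deposited, and all 9 passed the filter on low levels that left 15249 genes for testing. Lef1 lies nearest to that filter, with a mean of 6.34 log2 units over the 18 libraries against a minimum of 6.

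Magnetic beads were used to pull out lung cells bearing EpCAM, a surface protein of epithelia, from mice 10 to 12 weeks old, and their RNA was sequenced. The 18 libraries come from 4 genotypes: 5 from Falcor-/- (numbered 6 to 10), 4 from Foxa2+/- (11 to 14), 4 from Double-Het, which is Falcor+/-;Foxa2+/- (15 to 18), and 5 from wild type (1 to 5). Falcor is a long non-coding RNA annotated as 9030622O22Rik, and Foxa2 is a forkhead transcription factor of endoderm-derived epithelia. The comparisons address how loss of Falcor, of a single Foxa2 allele, or of an allele at each gene bears on the transcripts of these cells. Neither the kind of allele nor the strain or sex of the mice is stated in the labels. The labels number the libraries without saying that each is a separate animal, so the p-values measure only the spread between these libraries.

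Each value is a deposited level in log2 units. All libraries have almost the same distribution of levels, and the read depth behind them is unknown. A change is the difference of mean levels between genotypes, so 1 unit is a doubling. It counts as passing where the limma test, adjusted by Benjamini-Hochberg over all 15249 genes, gives p below 0.05. Levels are compared between libraries for a given gene, not between genes, because no scaling to transcript length is stated.

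The promoters of the 5 genes that were lower in Foxa2+/- cells are shown because they are the sequences in which a TCF/LEF or a forkhead word could stand. Lef1 has 4 windows, and Tcf7 and Tnfrsf19 have 2 each. Only 1 per gene is printed, the one with the lowest coordinate. For Tcf7 and Tnfrsf19, on the minus strand, that is the more downstream start. Each line is a window of 300 bases, 250 before and 50 after the annotated start, from RefSeq on GRCm38.p6, written 5′ to 3′ on the gene's own strand; the reads were aligned to mm9, an older build. Capitals mark a match to a TCF/LEF word, which is CTTTGAA with the alternatives CTTTGAT and further CTTTGTA as well as CTTTGTT, or to a forkhead word, which is TGTTTAC with the alternatives TGTTTGC and further TATTTAC as well as TATTTGC, searched on both strands. No TCF/LEF word overlaps a forkhead word here.
Nkd2, chr13:73847582-73847881, minus strand: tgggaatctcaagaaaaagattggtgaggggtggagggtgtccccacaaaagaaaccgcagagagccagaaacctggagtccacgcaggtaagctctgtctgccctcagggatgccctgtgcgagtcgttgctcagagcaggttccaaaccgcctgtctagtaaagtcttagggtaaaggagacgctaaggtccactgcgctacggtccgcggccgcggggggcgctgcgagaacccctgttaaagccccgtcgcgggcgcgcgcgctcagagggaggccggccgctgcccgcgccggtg
Tnfrsf19, chr14:61037938-61038237, minus strand: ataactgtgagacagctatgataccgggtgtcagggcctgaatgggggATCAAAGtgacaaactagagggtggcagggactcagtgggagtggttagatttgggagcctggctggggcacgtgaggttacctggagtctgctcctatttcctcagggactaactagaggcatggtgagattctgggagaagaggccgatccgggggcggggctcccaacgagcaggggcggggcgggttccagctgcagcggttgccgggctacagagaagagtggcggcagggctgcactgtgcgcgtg
Tcf7, chr11:52282546-52282845, minus strand: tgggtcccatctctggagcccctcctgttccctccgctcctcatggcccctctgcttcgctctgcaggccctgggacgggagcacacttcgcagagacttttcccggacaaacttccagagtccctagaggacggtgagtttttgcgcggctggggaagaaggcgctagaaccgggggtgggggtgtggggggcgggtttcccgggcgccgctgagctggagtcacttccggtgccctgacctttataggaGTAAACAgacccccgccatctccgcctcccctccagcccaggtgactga
Lef1, chr3:131110047-131110346, plus strand: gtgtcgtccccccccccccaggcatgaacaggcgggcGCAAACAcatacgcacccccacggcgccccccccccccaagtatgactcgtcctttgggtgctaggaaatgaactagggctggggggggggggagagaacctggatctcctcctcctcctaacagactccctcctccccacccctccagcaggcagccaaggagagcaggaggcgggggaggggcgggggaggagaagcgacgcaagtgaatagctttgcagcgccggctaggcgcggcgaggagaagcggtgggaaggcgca
Wif1, chr10:121033754-121034053, plus strand: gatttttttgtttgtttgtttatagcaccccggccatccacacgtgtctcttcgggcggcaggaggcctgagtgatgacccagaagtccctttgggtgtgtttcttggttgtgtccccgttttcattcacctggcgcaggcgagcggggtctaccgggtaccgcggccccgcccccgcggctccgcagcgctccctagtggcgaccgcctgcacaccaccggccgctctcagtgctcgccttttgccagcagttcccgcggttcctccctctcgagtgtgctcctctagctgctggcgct

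The capitals in Tnfrsf19 begin at position 49 of the window and are the TCF/LEF word CTTTGAT read on the other strand. Those in Lef1 begin at position 38 and are the forkhead word TGTTTGC on the other strand, and those in Tcf7 begin at position 252 and are TGTTTAC on the other strand. The printed windows of Nkd2 and Wif1 hold neither kind of word, nor do the unprinted windows of Tcf7 and Tnfrsf19. In all, 8 of the 9 genes have 13 windows in the table, of which 2 hold a TCF/LEF word and 3 a forkhead word; the other TCF/LEF match is CTTTGTA in a downstream Lef1 window, and the other forkhead match is in a Lef1 window that overlaps the printed one. Among all 32851 windows of the table, 16.88% hold a TCF/LEF word and 13.53% a forkhead word. These matches describe letters only and say nothing of binding.

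Foxa2 itself averaged 12.39 ± 0.052 log2 units in Foxa2+/- and 12.36 ± 0.19 in Double-Het cells, against 12.97 ± 0.083 in wild type (SD, n = 4, 4 and 5), and both differences passed. The Falcor transcript averaged 6.20 ± 0.68 in Falcor-/-, 11.70 ± 0.21 in Foxa2+/-, 11.66 ± 0.15 in Double-Het and 10.18 ± 0.48 in wild-type cells. The libraries labelled Double-Het are therefore above wild type for this transcript, although their label gives a lost Falcor copy.

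The sorted cells carried transcripts of other cell types, and these moved with genotype. Epithelial markers (15 of 15 listed genes measured) averaged 13.53 to 13.83 log2 units across Falcor-/- libraries, 13.66 to 13.76 in Foxa2+/-, 13.68 to 13.90 in Double-Het and 13.44 to 13.54 in wild type. Markers of ciliated cells, also epithelial (10 of 10 measured), averaged 12.63 to 13.40, 12.13 to 12.81, 12.94 to 13.05 and 12.69 to 12.98 in the same order. In Falcor-/-, Foxa2+/- and Double-Het cells 1, 0 and 0 of these 10 were higher than wild type and 0 lower. Endothelial markers (20 of 20 measured) averaged 11.40 to 13.20 in Falcor-/-, 10.63 to 11.12 in Foxa2+/-, 10.13 to 10.76 in Double-Het and 11.83 to 13.30 in wild type. Against wild type, 1, 18 and 18 of the 20 endothelial genes were lower in Falcor-/-, Foxa2+/- and Double-Het cells. Mesenchymal markers (18 of 20 measured) averaged 10.37 to 11.59, 9.95 to 10.93, 9.47 to 9.74 and 11.05 to 12.04 in Falcor-/-, Foxa2+/-, Double-Het and wild-type libraries, with 5, 8 and 15 of 17 tested genes lower than wild type in the 3 mutants. T lymphocyte markers (16 of 20 measured) averaged 7.82 to 8.65, 7.53 to 7.78, 7.90 to 8.13 and 7.81 to 8.10 in the same order of genotypes. Macrophage markers (12 of 12 measured) averaged 9.54 to 12.21, 11.93 to 12.31, 10.13 to 11.26 and 11.80 to 12.51, with 7, 0 and 7 of 12 lower than wild type. The lowest deposited value of any gene was 1, so a marker level above 0 does not by itself show that the marker was detected. In such bulk samples, fewer cells of a type and less RNA per cell cannot be told apart.

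**Figure D1:**
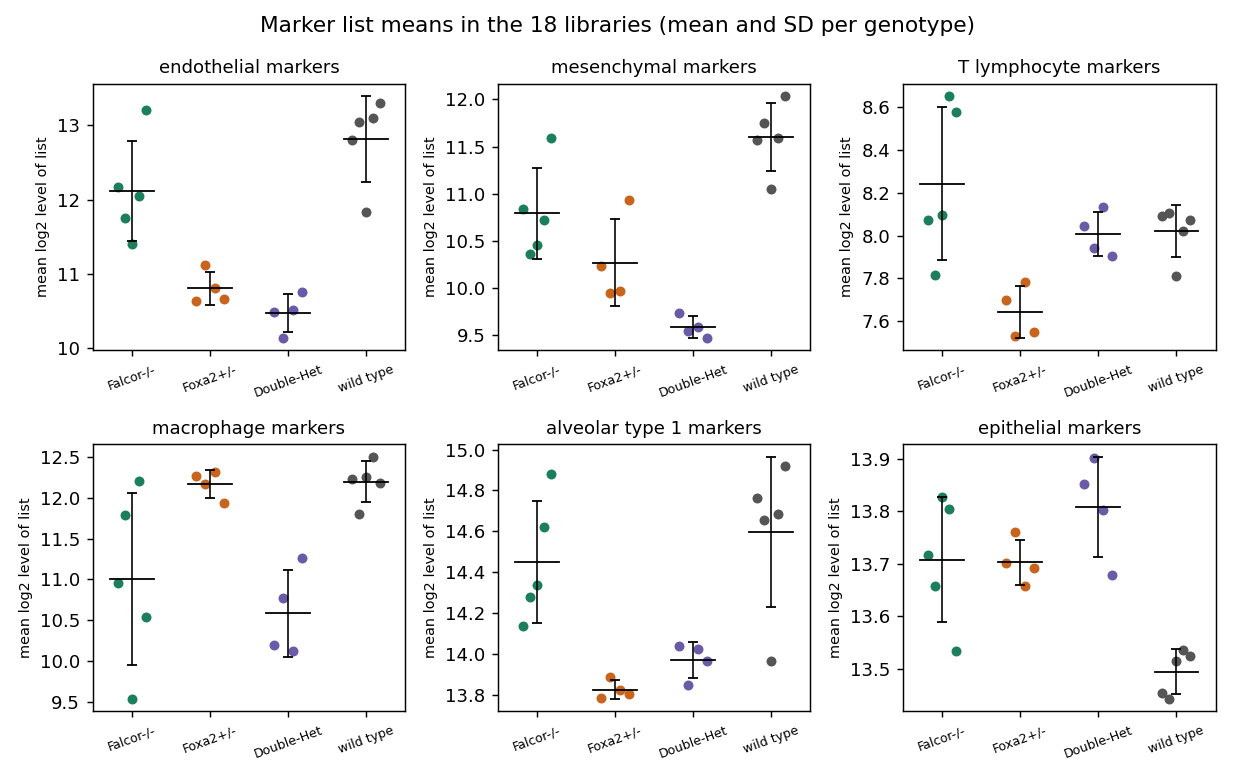
Mean log2 level of each marker list (vertical axis) in every library, by genotype (horizontal axis), 1 point per library, with lines at the mean and SD and a vertical axis of its own in each panel. The endothelial means of Foxa2+/- and Double-Het libraries lie between 10.13 and 11.12, all below the 11.83 to 13.30 of wild type.

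The 9 Wnt genes moved mainly in the 2 genotypes with a single Foxa2 copy. In Foxa2+/- cells 5 of the 9 fell and none rose, where 6.11% of all genes tested passed, 4.15% lower and 1.96% higher. The 5 are Nkd2, Lef1, Tnfrsf19, Wif1 and Tcf7, and in each of them the Foxa2+/- libraries lay wholly below the wild-type libraries, as they did for 5.48% of all genes tested. No such share was counted for Falcor-/- or Double-Het against wild type, so non-overlap there, given below for single genes, has no background beside it. In Double-Het cells 3 fell, namely Nkd2, Tnfrsf19 and Tcf7, and Wnt7b rose, where 14.8% of all genes passed, 7.57% lower and 7.21% higher. In Falcor-/- cells 0 of 9 passed in limma, where 9.47% of all genes did, 4.24% lower and 5.23% higher. At an unadjusted limma p below 0.05 there was 1 of 9, Nkd2, against 33.5% of all genes, and by the exact permutation test also 1, Nkd2, against 26% of all genes. The median change of the 9 was -0.051, -1.12 and -0.36 log2 units in Falcor-/-, Foxa2+/- and Double-Het cells, against 0.029, 0.039 and 0.069 for all genes tested. The 3 comparisons share their wild-type libraries. The 9 were chosen with earlier results of these data known, so setting their counts beside all genes is no test of the set. Of the 70 other Wnt genes tested, 5.71%, 8.57% and 11.4% passed in Falcor-/-, Foxa2+/- and Double-Het cells.

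**Figure D2:**
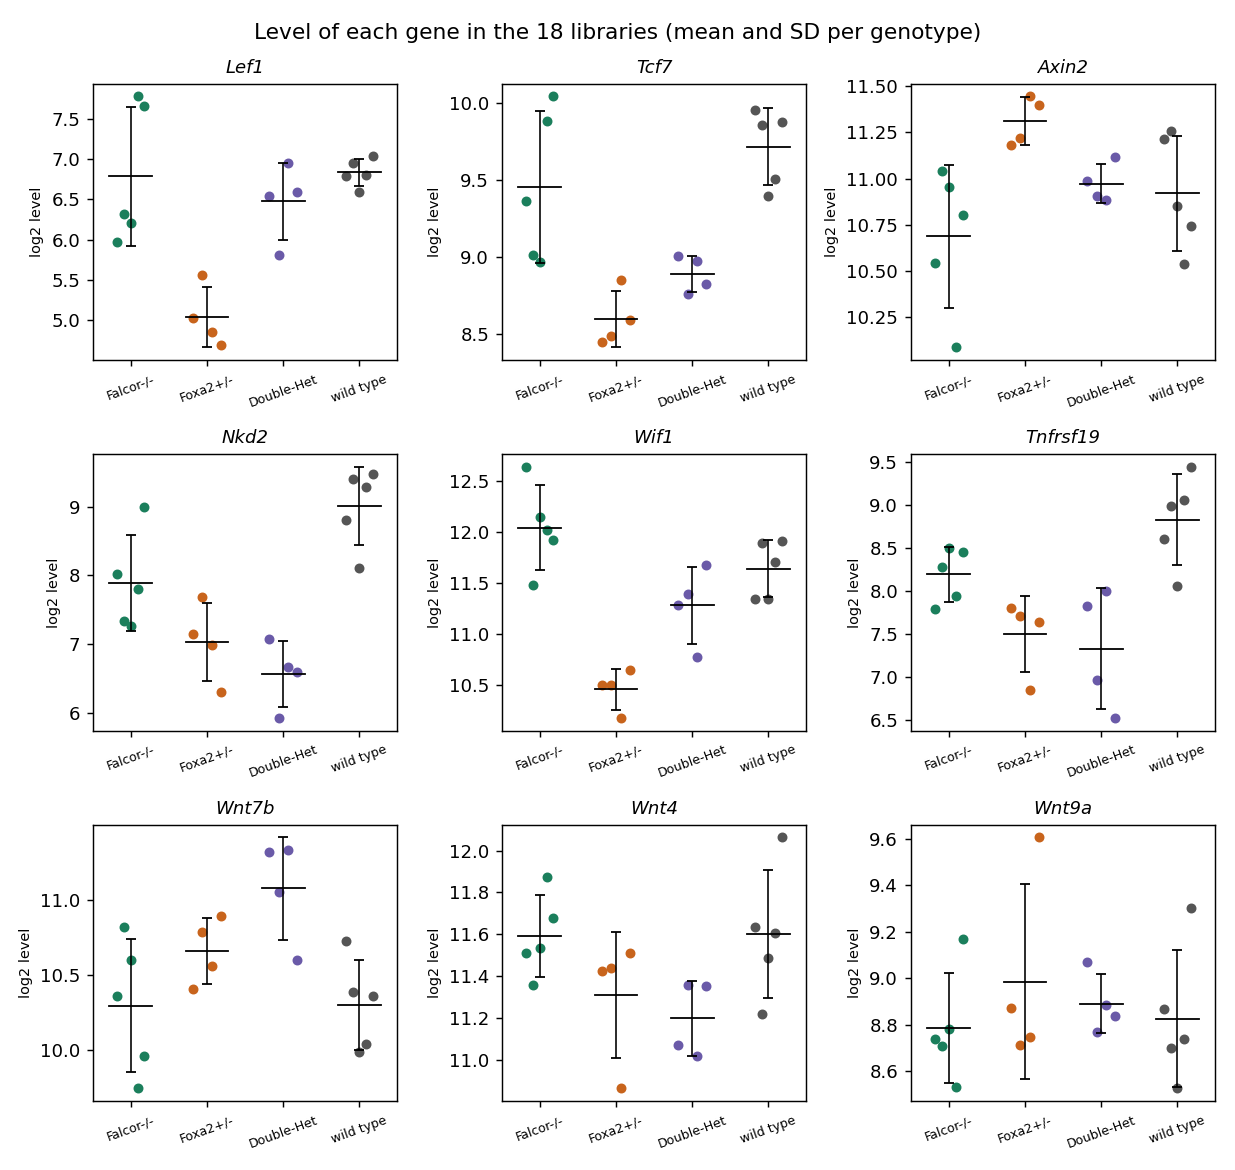
Log2 level (vertical axis) of each of the 9 genes in every library, grouped by genotype, 1 point per library, with lines at the mean and SD and a vertical axis of its own in each panel. Nkd2 in Double-Het libraries lies at 5.92 to 7.07, below all wild-type libraries at 8.11 to 9.48.

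**Figure D3:**
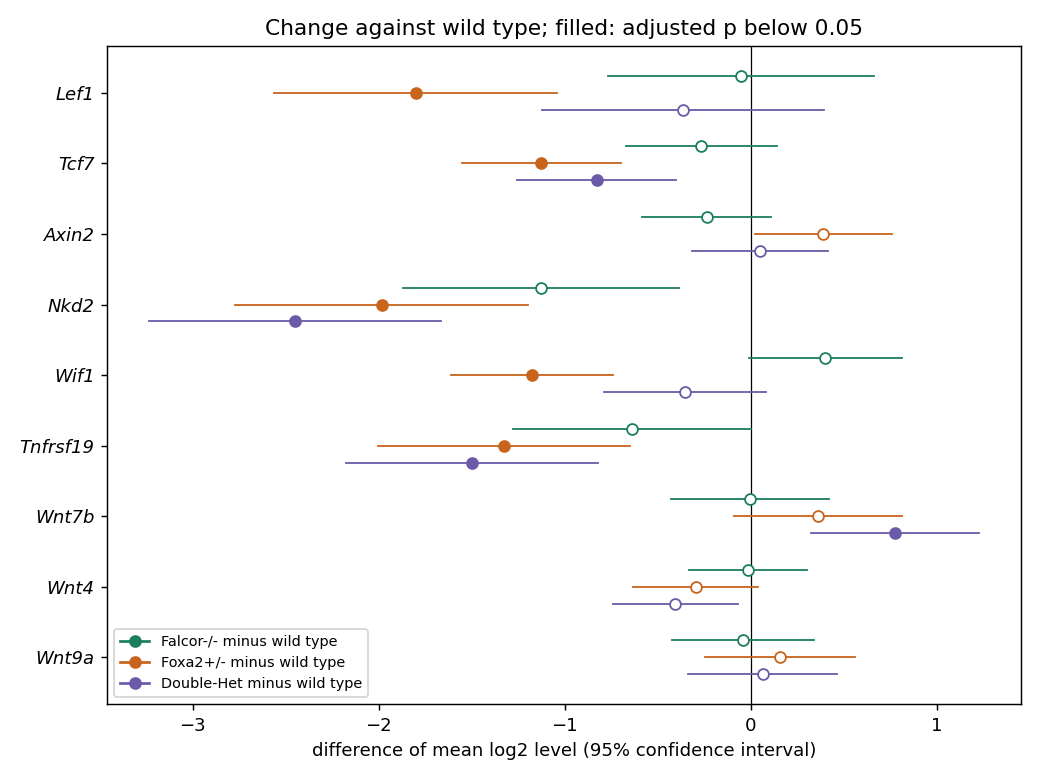
Change of each gene against wild type in log2 units (horizontal axis) with its 95% confidence interval, 1 row per genotype; filled points passed an adjusted p of 0.05. The 5 filled Foxa2+/- points lie between -1.98 and -1.12, and the only filled point above 0 is Wnt7b in Double-Het at 0.78.

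Among the ligands, Wnt7b was the only gene of the 9 that rose. Wnt7b is made by the lung epithelium and is required for lung growth in the mouse embryo. It stood at 11.32, 11.05, 11.33 and 10.60 log2 units in the 4 Double-Het libraries, against 10.73, 10.39, 9.99, 10.04 and 10.36 in wild type. Replicate 18 of Double-Het lay below wild-type replicate 1, so the groups overlap. The means were 11.08 ± 0.34 and 10.30 ± 0.30 (SD, n = 4 and 5), a rise of 0.78 (SE 0.21, limma adjusted p = 0.0224, exact permutation p = 0.0238), which is 1.71-fold. The adjusted p was 0.0777, 0.0539 or 0.0612 without Double-Het replicate 15, 16 or 17 and 0.0534 without wild-type replicate 4. With each library centred on its epithelial markers, the change was 0.46 (adjusted p = 0.0962).

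In the other mutants Wnt7b did not pass. Foxa2+/- libraries had 10.40, 10.79, 10.56 and 10.89, a change of 0.36 from wild type (SE 0.21, limma adjusted p = 0.392). Falcor-/- libraries had 10.36, 10.82, 10.60, 9.74 and 9.96, and their mean of 10.30 ± 0.44 equals that of wild type to 2 decimals (SE of the difference 0.20, adjusted p = 0.992). Its order of means was Double-Het, Foxa2+/-, then Falcor-/- and wild type, and Foxa2+/- did not differ from any of the others beyond the test.

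Wnt4, a ligand known chiefly for kidney and female reproductive tract development, varied little. It had 11.07, 11.36, 11.02 and 11.35 log2 units in Double-Het libraries, against 11.63, 11.22, 11.49, 11.61 and 12.06 in wild type, a change of -0.40 (SE 0.16, limma adjusted p = 0.0990, exact permutation p = 0.0476) with overlapping groups. Without wild-type replicate 2, the change was -0.50 and passed (adjusted p = 0.0482). In Foxa2+/- it had 11.42, 11.44, 10.86 and 11.51, a change of -0.29 (SE 0.16, adjusted p = 0.337). In Falcor-/- it had 11.51, 11.36, 11.53, 11.87 and 11.68, a change of -0.012 (SE 0.15, adjusted p = 0.962). The 4 genotype means thus span only 11.20 to 11.60.

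Wnt9a, a ligand with known parts in joint and liver development, passed in no comparison with wild type. Its libraries ran from 8.53 to 9.17 log2 units in Falcor-/-, 8.71 to 9.61 in Foxa2+/-, 8.77 to 9.07 in Double-Het and 8.52 to 9.30 in wild type. The changes were -0.040 (95% interval -0.42 to 0.34), 0.16 (-0.24 to 0.56) and 0.064 (-0.34 to 0.47), with limma adjusted p of 0.892, 0.741 and 0.845. Changes of more than 0.56 in size thus lie outside all 3 intervals.

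Wif1, which binds Wnt proteins outside the cell and keeps them from their receptors, fell in Foxa2+/- cells and passed in neither of the other comparisons with wild type. Its Foxa2+/- libraries had 10.51, 10.50, 10.18 and 10.66 log2 units, against 11.35, 11.89, 11.34, 11.70 and 11.91 in wild type. All 4 lay below all 5, and the means of 10.46 ± 0.20 and 11.64 ± 0.28 (SD) differed by -1.18 (SE 0.21, limma adjusted p = 0.00187, exact permutation p = 0.00794), which is 44.2% of the wild-type level. Double-Het libraries had 11.29, 11.39, 10.78 and 11.67, a change of -0.35 (SE 0.21, adjusted p = 0.264). In Falcor-/- libraries Wif1 had 12.64, 11.48, 12.14, 12.02 and 11.92, a change of 0.40 (SE 0.19, adjusted p = 0.157). Replicate 7, at 11.48, was the lowest of the Falcor-/- libraries, and without it the change was 0.54 and passed (adjusted p = 0.0421). Foxa2+/- and Double-Het libraries also did not overlap for Wif1, and that difference is given with the comparisons between mutants.

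Axin2, a scaffold of the complex that destroys beta-catenin and the most widely used readout of canonical Wnt signalling, passed in no comparison with wild type. It had 11.18, 11.22, 11.45 and 11.40 log2 units in Foxa2+/-, against 11.22, 11.26, 10.85, 10.54 and 10.74 in wild type. The means were 11.31 ± 0.13 and 10.92 ± 0.31 (SD), a difference of 0.39 (95% interval 0.023 to 0.76, limma adjusted p = 0.225, exact permutation p = 0.0714). Wild-type replicates 1 and 2 lay among the Foxa2+/- libraries, so the groups overlap. Falcor-/- libraries had 10.54, 11.04, 10.96, 10.09 and 10.80, a change of -0.23 (SE 0.16, adjusted p = 0.318). Double-Het libraries had 10.99, 10.90, 10.88 and 11.12, a change of 0.051 (SE 0.17, adjusted p = 0.866). In order of means, Foxa2+/- stood highest and Falcor-/- lowest.

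Nkd2, which binds Dishevelled and dampens Wnt signalling, had the most negative change of the 9 in each mutant genotype. Its Double-Het libraries had 7.07, 5.92, 6.66 and 6.59 log2 units, its Foxa2+/- libraries 7.15, 7.68, 6.99 and 6.30, and its wild-type libraries 8.80, 9.40, 8.11, 9.28 and 9.48. Every library of both mutants lay below every wild-type library. The Double-Het mean of 6.56 ± 0.48 differed from the wild-type mean of 9.01 ± 0.57 by -2.45 (SE 0.37, limma adjusted p = 0.000295, exact permutation p = 0.00794) and was 18.3% of it. The Double-Het levels lie near 6, the minimum mean of the filter, so this ratio rests on low levels. The Foxa2+/- mean of 7.03 ± 0.57 was 25.3% of wild type, a change of -1.98 (SE 0.37, adjusted p = 0.00311, exact permutation p = 0.0159). Falcor-/- libraries had 8.02, 7.33, 7.27, 7.80 and 8.99, a change of -1.13 (95% interval -1.87 to -0.39) with an adjusted p of 0.0512 and an exact permutation p of 0.0317.

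The Falcor-/- result for Nkd2 rested on single libraries. Without Falcor-/- replicate 10 the change was -1.41 (limma adjusted p = 0.0222), and without wild-type replicate 3 it was -1.36 (adjusted p = 0.0275), so in either case it passed. Those libraries stand at the ends of their genotypes in endothelial, mesenchymal and alveolar type 1 markers as well. Replicate 10 had the highest endothelial mean of the Falcor-/- libraries, 13.20 log2 units, and the highest Nkd2, 8.99. Wild-type replicate 3 had the lowest endothelial mean of its genotype, 11.83, and the lowest Nkd2, 8.11. In these 2 libraries the mesenchymal means were 11.59 and 11.05 and the alveolar type 1 means 14.88 and 13.96, again the highest and lowest. The 2 genotypes with the lowest Nkd2 also had the lowest endothelial, mesenchymal and alveolar type 1 means. Which of these lists, if any, bears on Nkd2 was not tested. With the endothelial list mean as a covariate, the Nkd2 change was -0.0061 in Double-Het and 0.11 in Foxa2+/- cells, and passed in neither.

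Tcf7, a TCF/LEF factor best known from T cell development and itself a Wnt target, fell in both genotypes with a single Foxa2 copy. Its Foxa2+/- libraries had 8.44, 8.49, 8.85 and 8.59 log2 units, its Double-Het libraries 9.01, 8.76, 8.97 and 8.82, and its wild-type libraries 9.95, 9.85, 9.40, 9.51 and 9.87. All libraries of both mutants lay below the lowest wild-type library. The Foxa2+/- mean of 8.59 ± 0.18 was 45.9% of wild type, a change of -1.12 (SE 0.20, limma adjusted p = 0.00235, exact permutation p = 0.00794). The Double-Het mean of 8.89 ± 0.12 was 56.3% of wild type, a change of -0.83 (SE 0.20, adjusted p = 0.0116, exact permutation p = 0.00794). In Falcor-/- cells Tcf7 had 9.36, 9.01, 8.96, 9.89 and 10.04, on both sides of the wild-type mean of 9.72 ± 0.25, a change of -0.26 (SE 0.19, adjusted p = 0.335).

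Lef1, the TCF/LEF factor whose own gene is a canonical Wnt target, fell in Foxa2+/- cells. It had 5.02, 5.56, 4.86 and 4.69 log2 units there, against 6.78, 6.95, 6.60, 6.81 and 7.04 in wild type. The groups did not overlap, and the means of 5.03 ± 0.37 and 6.84 ± 0.17 (SD) differed by -1.80 (SE 0.36, limma adjusted p = 0.00491, exact permutation p = 0.00794), or 28.7% of wild type. All Foxa2+/- values lay below 6, the minimum mean of the filter, so this ratio rests on low levels. Double-Het libraries had 6.54, 5.81, 6.95 and 6.59, a change of -0.36 (95% interval -1.12 to 0.40, adjusted p = 0.522). Falcor-/- libraries had 5.96, 6.31, 6.20, 7.78 and 7.66, and their mean of 6.78 ± 0.87 differed from wild type by -0.051 (95% interval -0.77 to 0.66, adjusted p = 0.928). That mean hides a split: replicates 6 to 8 lay below every wild-type library and replicates 9 and 10 above every wild-type library.

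T lymphocyte markers were likewise higher in Falcor-/- replicates 9 and 10 than in replicates 6 to 8. Their mean level was 8.65 and 8.58 log2 units in Falcor-/- replicates 9 and 10, against 8.07, 7.82 and 8.10 in replicates 6, 7 and 8. It was 7.53 to 7.78 in Foxa2+/- libraries, where Lef1 and Tcf7 were lowest, against 7.81 to 8.10 in wild type. Falcor-/- replicates 6 to 8 thus lay within the wild-type range for these markers, unlike for Lef1. Of the 15 genes of the list tested, 1 was lower and 0 higher in Foxa2+/- cells than in wild type. The split is not particular to T lymphocyte markers. Alveolar type 1 markers averaged 14.62 and 14.88 in Falcor-/- replicates 9 and 10, against 14.14, 14.28 and 14.34 in replicates 6, 7 and 8. They averaged 13.78 to 13.89 in Foxa2+/- libraries, against 13.96 to 14.92 in wild type. Whether they bear on Lef1 was not tested. Cd3e, a subunit of the T cell receptor complex, averaged 6.58 ± 0.50, 5.72 ± 0.80, 6.31 ± 0.46 and 6.14 ± 0.37 in Falcor-/-, Foxa2+/-, Double-Het and wild-type libraries and passed in no comparison with wild type. With the T lymphocyte list mean as a covariate, the Foxa2+/- change was -1.08 for Lef1 (limma adjusted p = 0.131), while Tcf7 and Wif1 still passed. Nkd2 and Tnfrsf19 also lost their calls there, and the calls over all genes went from 932 to 200. In Falcor-/- cells that covariate brought the Tcf7 change to -0.55 (adjusted p = 0.0246).

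Tnfrsf19, also called Troy, is a receptor of the TNF receptor superfamily and a Wnt target that marks stem cells in the gut. It had 7.83, 6.97, 8.005 and 6.53 log2 units in Double-Het, 7.80, 7.72, 6.85 and 7.65 in Foxa2+/-, and 8.60, 8.99, 8.06, 9.06 and 9.45 in wild-type libraries. The lowest wild-type library, replicate 3, lay just above the highest mutant library of either genotype. The Double-Het mean of 7.33 ± 0.70 was 35.4% of wild type, a change of -1.50 (SE 0.32, limma adjusted p = 0.00477, exact permutation p = 0.0159). The Foxa2+/- mean of 7.50 ± 0.44 was 39.8% of wild type, a change of -1.33 (SE 0.32, adjusted p = 0.0187, exact permutation p = 0.0159). The Foxa2+/- call was lost without Foxa2+/- replicate 13 (change -1.11, adjusted p = 0.0840) and without wild-type replicate 5 (-1.17, adjusted p = 0.0560). The Falcor-/- values were 7.79, 8.28, 8.50, 7.94 and 8.46, a change of -0.64 (SE 0.30, adjusted p = 0.150).

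These calls moved with the marker lists. With either the endothelial or the mesenchymal list mean as a covariate, 0 of the 9 genes passed in Foxa2+/- or Double-Het cells, and of all genes 0 passed in Foxa2+/- and 2 in Double-Het, against 932 and 2254 without a covariate. Genotype holds 82.2% of the variance of the endothelial list mean and 82.0% of that of the mesenchymal list mean. Alveolar type 1 markers, which are epithelial, were also lower, in 7 and 8 of 11 genes in Foxa2+/- and Double-Het cells, where 4.15% and 7.57% of all genes were. The general epithelial list went the other way, with 3 and 4 of 15 genes higher and 0 lower. Of alveolar type 2, club and ciliated markers 0 were lower in either genotype, and of basal markers 1 of 6 was lower in Double-Het. Lower levels of the Wnt genes within epithelial cells and a changed mix of cells cannot be told apart in these libraries.

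In Falcor-/- against Foxa2+/- cells 4 of 9 passed, 3 higher and 1 lower, where 16.7% of all genes did, 8.56% higher and 8.1% lower. Wif1 was 1.58 higher (SE 0.21, limma adjusted p = 0.000613), a 2.99-fold difference, Lef1 was 1.75 higher (SE 0.36, adjusted p = 0.00752), or 3.37-fold, and Tcf7 was 0.86 higher (SE 0.20, adjusted p = 0.0137), or 1.82-fold. The Lef1 ratio rests on Foxa2+/- levels that all lie below 6, the minimum mean of the filter. Axin2 went the other way, with a difference of -0.63 (SE 0.17, adjusted p = 0.0259), or 64.8% of its Foxa2+/- level. In each of the 4 genes the libraries of the 2 genotypes did not overlap, as in 12.3% of all genes. Of 10 ciliated cell markers, 6 were also higher in Falcor-/- than in Foxa2+/- cells and 0 lower. Whether this bears on the Wif1 difference was not tested. The Axin2 adjusted p was 0.0562 or 0.0550 without Falcor-/- replicate 6 or 9, and 0.0867 or 0.0642 without Foxa2+/- replicate 13 or 14. Fitted to these 2 genotypes alone, Lef1 and Wif1 passed, and Tcf7 and Axin2 had adjusted p of 0.0561 and 0.0594.

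Double-Het and Foxa2+/- cells, which share the lost Foxa2 copy, gave 0 of 9 calls in limma, where 2.43% of all genes passed, 1.37% lower and 1.06% higher. At an unadjusted limma p below 0.05 there were 2, Lef1 and Wif1, against 18.2% of all genes, and by the exact permutation test 3, these and Axin2, against 11.9% of all genes. Lef1 was 1.44 higher in Double-Het (95% interval 0.64 to 2.24, adjusted p = 0.0553, exact permutation p = 0.0286), or 2.71-fold, over Foxa2+/- levels that all lie below 6. Wif1 was 0.82 higher (95% interval 0.36 to 1.28, adjusted p = 0.0566, exact permutation p = 0.0286), or 1.77-fold, and passed without Double-Het replicate 17 (0.99, adjusted p = 0.0408). Axin2 differed by -0.34 (SE 0.18, adjusted p = 0.344, exact permutation p = 0.0286). In these 3 genes the libraries did not overlap, which was also so for 11.9% of all genes, and 0.0286 is the smallest p that 4 against 4 libraries can give. Both Lef1 and Wif1 passed when libraries were weighted by their fit (adjusted p = 0.0202 and 0.0114), a setting that raised the calls over all genes to 2125, or 13.9%, against 370 without weights.

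In Double-Het against Falcor-/- cells 3 of 9 passed, 1 higher and 2 lower, where 5.15% of all genes did, 2.15% higher and 3% lower. Nkd2 differed by -1.32 (SE 0.37, limma adjusted p = 0.0492) with no overlap of libraries, Wif1 by -0.76 (SE 0.21, adjusted p = 0.0421) and Wnt7b by 0.78 (SE 0.21, adjusted p = 0.0437), the last 2 with overlap. None of the 3 calls is firm. All 3 were lost without Falcor-/- replicate 6, 9 or 10 or Double-Het replicate 15, 16 or 17, when the adjusted p of these genes ranged up to 0.163. Wnt4 was lower in all Double-Het libraries than in any Falcor-/- library, a difference of -0.39 (adjusted p = 0.163, exact permutation p = 0.0159). The share of all genes without overlap was not counted in this comparison, so the separations of Nkd2 and Wnt4 have no background beside them.

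Lists of Wnt ligands, receptors, secretion factors, secreted inhibitors, cytoplasmic parts, nuclear parts and targets name 105 genes, of which 80 were measured and 79 tested. Among the 70 tested that are not among the 9, 3 were higher and 1 lower in Falcor-/-, 1 higher and 5 lower in Foxa2+/-, and 2 higher and 6 lower in Double-Het cells than in wild type. These are 5.71%, 8.57% and 11.4% of the 70, against the 9.47%, 6.11% and 14.8% of all genes that passed in the same comparisons, and the counts by list given next have the same all-gene shares beside them. Nothing particular to the pathway is read from these counts. The median changes of the 70 were -0.070, 0.025 and 0.0076 log2 units, against 0.029, 0.039 and 0.069 for all genes tested. Ctnnb1, which encodes beta-catenin, averaged 16.02 ± 0.084, 16.10 ± 0.089, 16.13 ± 0.11 and 16.21 ± 0.024 in Falcor-/-, Foxa2+/-, Double-Het and wild-type libraries and passed in none of the 3 comparisons.

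**Figure D4:**
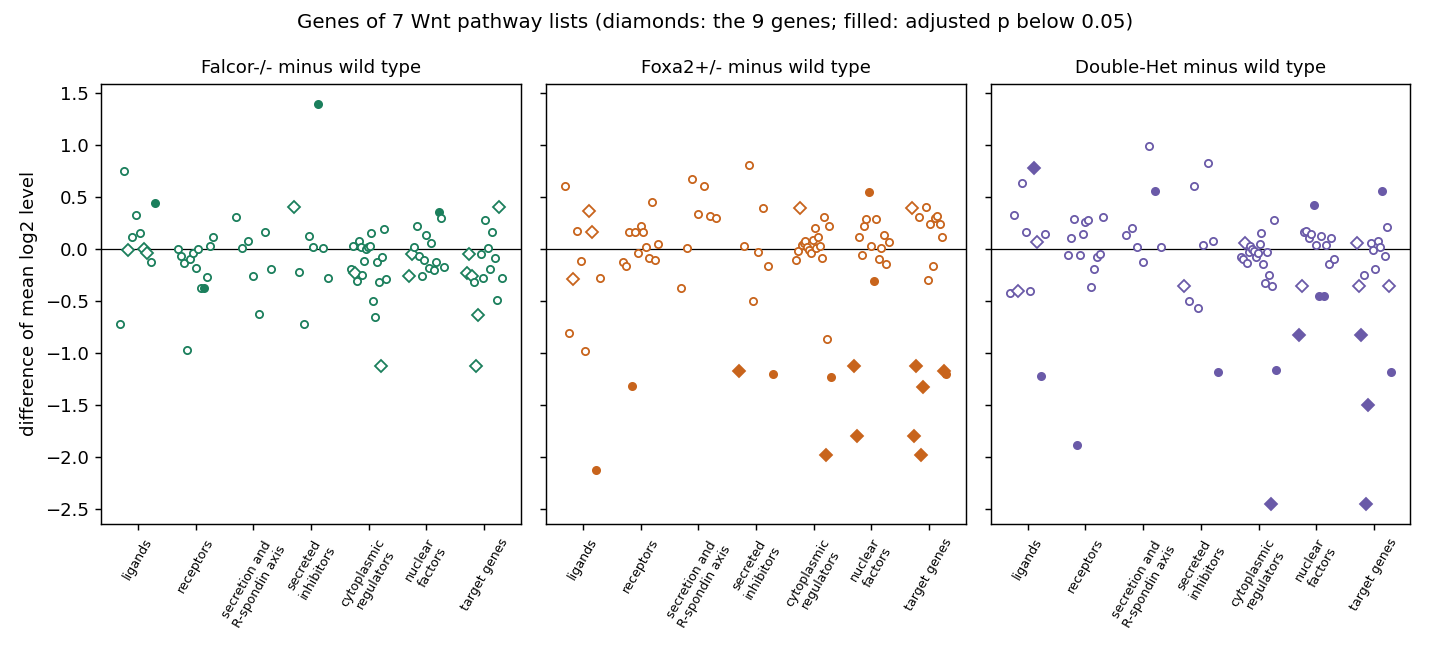
Change against wild type in log2 units for every tested gene of the 7 Wnt lists, by list and genotype, 1 point per gene; diamonds are the 9 genes, filled points passed an adjusted p of 0.05, and a gene in 2 lists appears in both. Most points lie near 0, and Nkd2 in Double-Het at -2.45 is the lowest.

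Of 10 ligands tested, 1 was higher in Falcor-/-, 1 was lower in Foxa2+/-, and 1 was higher and 1 lower in Double-Het cells. Over all genes 9.47%, 6.11% and 14.8% passed in these comparisons. Wnt10b, a canonical ligand, averaged 6.44 ± 0.67 log2 units in Foxa2+/- and 7.34 ± 0.25 in Double-Het, against 8.57 ± 0.42 in wild type, with changes of -2.13 (SE 0.31, limma adjusted p = 0.000738) and -1.23 (SE 0.31, adjusted p = 0.0145). All libraries of both mutants lay below wild type. Foxa2+/- levels of Wnt10b reached down to 5.82, under the filter's minimum mean of 6, so that change rests on low levels. Wnt11, a ligand of the non-canonical branch, averaged 12.55 ± 0.28 in Falcor-/- and 12.11 ± 0.16 in wild type, a rise of 0.44 (SE 0.13, adjusted p = 0.0496). Wnt2, a ligand made by lung mesenchyme, fell under the filter and was not tested, with 6.74 ± 0.64, 5.37 ± 1.30, 4.11 ± 0.52 and 7.22 ± 0.84 in Falcor-/-, Foxa2+/-, Double-Het and wild-type libraries.

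Of 13 receptors, 1 was lower in each mutant, where 9.47%, 6.11% and 14.8% of all genes passed in Falcor-/-, Foxa2+/- and Double-Het cells. The co-receptor Lrp6 averaged 13.11 ± 0.093 in Falcor-/- and 13.49 ± 0.12 in wild type, a change of -0.37 (SE 0.074, limma adjusted p = 0.0117) with no overlap. The Frizzled receptor Fzd4, which also serves retinal vessels, averaged 9.82 ± 0.10 in Foxa2+/- and 9.25 ± 0.81 in Double-Het, against 11.14 ± 0.34 in wild type, with changes of -1.31 (SE 0.36, adjusted p = 0.0364) and -1.89 (SE 0.36, adjusted p = 0.00192). Of 7 secretion and R-spondin genes, Rnf43, an enzyme that removes Frizzled receptors from the surface, rose in Double-Het cells by 0.56 (SE 0.14, adjusted p = 0.0126).

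Of 8 secreted or surface inhibitors, 1 was higher in Falcor-/-, 2 were lower in Foxa2+/- and 1 was lower in Double-Het cells. The shares over all genes, here and for the cytoplasmic genes below, were 9.47%, 6.11% and 14.8%. Kremen2, a receptor for Dkk inhibitors, averaged 7.60 ± 0.58 in Falcor-/- and 6.21 ± 0.47 in wild type, a rise of 1.39 (SE 0.32, limma adjusted p = 0.0189) with no overlap. Its wild-type levels reached down to 5.41, under the filter's minimum mean of 6, so this rise rests on low levels. Apcdd1, a membrane inhibitor of Wnt signalling, fell by 1.20 in Foxa2+/- (SE 0.31, adjusted p = 0.0274) and by 1.18 in Double-Het cells (SE 0.31, adjusted p = 0.0164). Of 20 cytoplasmic genes, 0 passed in Falcor-/- and 2 were lower in each of the other mutants, namely Nkd2 and Dact3, which binds Dishevelled. Dact3 changed by -1.23 (adjusted p = 0.0326) and -1.16 (adjusted p = 0.0246) in Foxa2+/- and Double-Het cells. Foxa2+/- levels of Apcdd1 and Dact3 reached down to 5.91 and 5.71, so these changes also rest on low levels.

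Of 15 nuclear genes, 1 was higher in Falcor-/-, and 1 was higher and 3 lower in each of the other mutants. For these and the targets below, the shares over all genes were 9.47%, 6.11% and 14.8% in Falcor-/-, Foxa2+/- and Double-Het cells. Ctnnbip1, which keeps beta-catenin from TCF factors, rose by 0.35 in Falcor-/- (SE 0.10, limma adjusted p = 0.0407). The co-repressor Tle1 changed by -0.31 (adjusted p = 0.0201) and -0.45 (adjusted p = 0.000789) in Foxa2+/- and Double-Het cells, and Tle3 by -0.45 (adjusted p = 0.00506) in Double-Het cells. Pygo1, a beta-catenin co-activator, rose by 0.55 (adjusted p = 0.0188) and 0.42 (adjusted p = 0.0418). Of 16 targets, which include 6 of the 9 genes, 0 passed in Falcor-/-, 6 were lower in Foxa2+/-, and 4 were lower and 1 higher in Double-Het cells. Target genes outside the 9 that passed were Apcdd1 and Rnf43. The targets Nkd1, Sp5, Ccnd1, Myc and Notum passed in no comparison with wild type.

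Likeness between genes was described by Pearson's r over the 18 libraries after each genotype's mean was subtracted, so that shared genotype differences do not enter. The 2 genes most like Nkd2 were Robo4 (0.94), an endothelial receptor and part of the endothelial list, and Tmem100 (0.92). Those most like Axin2 were Sepsecs and Zfp385b (0.94 each), and those most like Wnt7b were Gata6 (0.87), a transcription factor of lung epithelium, and Gorasp1 (0.86). For Tcf7 they were Fam20a (0.86) and Lims1 (0.84), for Lef1 Asb13 (0.84) and Fam198b (0.79), and for Tnfrsf19 Clstn1 (0.86) and Gna11 (0.81). For Wif1 they were Stk33 and Atp6v1c1 (0.79 each), for Wnt4 Rsph1 (0.82), a ciliary gene of the ciliated cell list, and Cd37 (0.81), and for Wnt9a Col5a1 (0.90), a fibrillar collagen, and Afap1l2 (0.88). Each is the top of the values over the genes tested, within the same libraries, and is a description only.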

How the data were processed

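The deposited values are log2 levels of 15544 mouse genes in 18 libraries. Per the submitters' processing notes, STAR, limma and the mm9 genome were used; the counter, annotation, strand and versions are unstated there. That the logarithm is to base 2 is taken from the range of the values. Their distribution is almost the same in every library, as quantile normalization before deposit would give, though no such step by the authors is stated in the sources used here. Depth is therefore unknown, and shifts common to most genes would be hidden. Symbols matched 14994 identifiers. Without a known strand setting, levels of Lef1, Tcf7, Axin2, Nkd2, Tnfrsf19 and Wnt7b can include reads of genes annotated across them.

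Genes with a mean under 6 were left out (295). The 18 libraries entered a single limma 3.58.1 model (R 4.3.3) holding a mean for each genotype, with an intensity trend (14 residual degrees of freedom, 17.0 after moderation, 2-sided, Benjamini-Hochberg over all genes tested). The exact permutation test of a difference of means had 252, 126 or 70 regroupings. The fit was tested on simulated data. Named pathway genes are those that passed against wild type, up to 4 per list by p, besides Ctnnb1, Wnt2 and the targets listed as not passing, which were chosen after their values were seen; for likeness, the top 2 named genes were taken. Alternatives covered the filter, trend, library weights, centring, marker covariates and leaving out each library. The genes and lists were chosen with earlier results of these data known.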

Additional observations from a re-analysis of the deposited data

Results flagged for a closer look

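Among 36 groups of 4 or 5 libraries (9 genes in 4 genotypes), 2 had a library that stood apart by Dixon's test, where chance gives about 1 in 20. The 2 are thus near the count that chance alone gives. Both are Foxa2+/- replicate 13. That library also had the lowest ciliated marker mean of its genotype, 12.13 log2 units, and whether the 2 are related was not tested. Tnfrsf19 was at 6.85 log2 units there, with the nearest library at 7.65 and the highest at 7.80, so the gap was 0.834 of the range, just past the critical value. Wnt4 was at 10.86, with the nearest library at 11.42 and the highest at 11.51, a gap of 0.863 of the range. Without this library the Tnfrsf19 difference between Foxa2+/- and wild type was -1.11 and no longer passed.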

How the results depend on the processing

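No paired analysis was possible because the groups share no replicate numbers.

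Counts of the 9 genes that passed changed as follows, each with the count over all genes in brackets. In Falcor-/- against wild type, 0 (1444) became 2 (4467) when centred on the epithelial markers (Nkd2, Tnfrsf19) and 2 (724) with the T lymphocyte covariate (Tcf7, Nkd2), and the unadjusted exact permutation test gave 1 (3971). In Foxa2+/- against wild type, 5 (932) became 3 (747) at a minimum mean of 8, which removes Lef1 and Nkd2, 0 (0) with the endothelial or mesenchymal covariate, and 2 (200) with the T lymphocyte covariate. In Double-Het against wild type, 4 (2254) became 0 (2) with the endothelial or mesenchymal covariate and 2 (556) with the macrophage covariate. In Falcor-/- against Foxa2+/-, 4 (2540) became 2 (1181) in a fit of these 2 genotypes, 2 (505) with the mesenchymal, 0 (15) with the endothelial and 0 (7) with the T lymphocyte covariate. In Double-Het against Foxa2+/-, 0 (370) became 2 (2125) with library weights, 1 (295) with the endothelial covariate and 3 (1818) by the exact permutation test. In Double-Het against Falcor-/-, 3 (785) became 0 without the trend (709), with the 2 genotypes alone (342), and with the endothelial (4), mesenchymal (3), T lymphocyte (298) and macrophage (687) covariates. Leaving out each library in turn gave 0 to 1, 4 to 5, 3 to 5, 3 to 4, 0 to 1 and 0 to 3 in the same order of comparisons. The cause of these changes was not tested, except where fewer genes or samples enter by construction.

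These changes took the other sign. In Falcor-/- against wild type, Lef1 was 0.065, Wnt4 0.064 and Wnt9a 0.039 with library weights; Lef1 was 0.41, Tcf7 0.038, Wnt4 0.071 and Wnt9a 0.12 with the endothelial covariate; Lef1 was 0.29, Tcf7 0.13, Wnt4 0.20 and Wnt9a 0.46 with the mesenchymal covariate. Wnt7b was 0.16 with the T lymphocyte covariate, and Lef1 was 0.16 and Wnt4 0.096 with the macrophage covariate. In Foxa2+/- against wild type, Wnt9a was -0.049 when centred on epithelial markers, Nkd2 0.11 with the endothelial and Wnt4 0.048 with the mesenchymal covariate. In Double-Het against wild type, Axin2 was -0.024 with library weights, and Axin2 was -0.26 and Wnt9a -0.25 when centred on epithelial markers. There, Lef1 was 1.16, Tcf7 0.18, Axin2 -0.066 and Wif1 0.021 with the endothelial covariate. With the mesenchymal covariate Lef1 was 0.50, Tcf7 0.15, Axin2 -0.016, Wif1 0.22 and Wnt4 0.11, and with the macrophage covariate Axin2 was -0.24 and Wnt9a -0.18. In Double-Het against Falcor-/-, Nkd2 was 0.39 with the endothelial covariate. Leaving out each library in turn, the change from wild type ran from -0.30 to 0.15 for Lef1, -0.11 to 0.10 for Wnt4, -0.13 to 0.13 for Wnt7b and -0.14 to 0.079 for Wnt9a in Falcor-/-, from -0.049 to 0.28 for Wnt9a in Foxa2+/-, and from -0.045 to 0.14 for Axin2 and -0.011 to 0.18 for Wnt9a in Double-Het. Centring on epithelial markers moved the median change of all genes to -0.18, -0.17 and -0.24 in Falcor-/-, Foxa2+/- and Double-Het cells.

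Limits are the 4 or 5 libraries per genotype, the unknown depth, and levels with almost the same distribution in every library. The marker covariates differ strongly between genotypes, so they take genotype differences with them, and a call lost under them does not show that a gene was unchanged.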
